A study of Mus musculus with 10 samples.

Results

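The genes described here encode the subunits of heterotrimeric G proteins and the RGS proteins (regulators of G protein signalling), measured in the hemibrains of male C57BL/6J mice. Members were the non-control probes whose gene symbol follows the naming of the Gna, Gnb, Gng and Rgs families. This gave 49 genes with 79 probes, of 18539 genes that could be named on the array. They comprised 13 G alpha genes with 24 probes, 5 G beta genes with 9 probes, 11 G gamma genes with 16 probes and 20 RGS genes with 30 probes. Gna12, Gnat3, Gngt2 and Rgs21 had no matched probe. Gnao1, the most abundant G alpha gene of brain, is not matched by the letters of the symbol rule and is given with the pathway genes.

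The data hold 10 arrays, each with hemibrain RNA in the Cy-5 dye and a second RNA in the Cy-3 dye, and every value below is a log2 ratio of the first dye over the second. Mice began a fish oil enriched diet (FD) or a standard diet (SD) at 3 weeks of age and stayed on it for 20 weeks, to 5 months. The sources disagree on what each dye held. In the sample labels the diet entry of Cy-5 is FD throughout and Cy-3 is pooled hemibrain on SD, but the description field reads as controls, and the study's methods assign Cy-3 to an Agilent reference RNA and name 4 arrays from FD-fed and 3 from SD-fed mice, fewer than the 10 here. The diet of each array is therefore not settled. FD and SD were not compared, and values are given per array or as the lowest, median and highest over the arrays. Arrays carry the number of the animal, from C10-413 to C10-437.

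A heterotrimeric G protein couples a receptor in the cell membrane to enzymes and channels inside the cell. The activated receptor makes the alpha subunit exchange GDP for GTP, after which alpha and the beta-gamma pair separate and act on adenylyl cyclases, phospholipase C beta, potassium channels and other effectors. RGS proteins speed up GTP hydrolysis by the alpha subunit and so end the signal, and in brain they set the time course of responses to dopamine, opioids, acetylcholine and glutamate.

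The labelled tissue was checked with marker genes. All 6 neuronal, 5 astrocyte and 5 oligodendrocyte markers were at least 2-fold higher in Cy-5 on every array, and the neuronal list had an array median between 5.56 and 6.60 on the log2 scale. All 5 proliferation markers were at least 2-fold higher in Cy-3, with a median of -6.22. The RNA in Cy-3 thus differed from hemibrain RNA in these markers of cell types and of proliferation. Array C10-434 was dim, where Cy-5 rose well above background for 49.8% of probes, compared with 68.2% to 76.9% elsewhere. Its share in Cy-3 was also the lowest, at 61.9%, compared with 70.3% to 79.1% elsewhere. Its median background-subtracted signal was 28.5 in Cy-5, compared with 60 to 171 elsewhere. In Cy-3 that signal was 127, within the 103 to 136 of the other arrays. A ratio in bulk tissue cannot tell fewer cells of a type from less RNA per cell.

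Of the 49 members, 21 (42.9%) were at least 2-fold higher in Cy-5 on every array with a value, that is, above 1 on the log2 scale, where the share over all genes was 18.0%. Another 3 members (6.12%), Gng5, Gnai3 and Rgs1, were at least 2-fold higher in Cy-3 on every array, where the share over all genes was 13.3%. The median of the member medians was 0.84, against 0.12 for all genes. The class medians were 0.70 for G alpha, -0.43 for G beta, 0.17 for G gamma and 1.74 for RGS genes, but the classes overlapped. Member medians ran from -2.18 to 4.35 for G alpha, -1.15 to 3.14 for G beta, -2.27 to 5.31 for G gamma and -5.45 to 6.53 for RGS genes. A gene with several probes is given by the one of highest mean log2 signal over both dyes and all arrays, called its main probe. By class, 4 of 13 G alpha, 1 of 5 G beta, 4 of 11 G gamma and 12 of 20 RGS genes were at least 2-fold higher in Cy-5. In 36 members the probe was well above background in both dyes on all 10 arrays. No test was made on these counts, which compare hemibrain RNA with the RNA in Cy-3 and not diets.

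The inhibitory G alpha genes spanned the widest range of the alpha subfamilies. Gnai1, Gnai2 and Gnai3 encode close relatives that inhibit adenylyl cyclase, and by their main probes Gnai1 did not overlap the other two. Gnai1 ranged from 3.58 to 4.87 with a median of 4.35, which is 20.4-fold higher in Cy-5. Gnai2 ranged from -1.78 to -0.18 with a median of -0.81, and Gnai3 from -2.55 to -1.62 with a median of -2.18, which is 4.53-fold higher in Cy-3. Gnai2 and Gnai3 overlapped, since Gnai2 on C10-423 lay below Gnai3 on the same array. Gnaz, a slowly hydrolysing member of the inhibitory group found mostly in neurons and platelets, ranged from 2.71 to 3.56 with a median of 3.15.

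Gnaq, which activates phospholipase C beta, had a value on 7 arrays after outlier-flagged spots were set aside, and these lay between 1.5 and 2.24 with a median of 1.98. Its close relative Gna11 had values between 0.22 and 0.92 with a median of 0.70 by its main probe and between 1.15 and 1.9 with a median of 1.60 by its other probe, which overlapped Gnaq. Gnas and Gnal both stimulate adenylyl cyclase, and Gnal takes the place of Gnas in striatal neurons and olfactory sensory neurons. Gnas ranged from 0.81 to 2.06 with a median of 1.47, and was below the 2-fold threshold on 2 arrays, C10-423 and C10-435. Gnal ranged from 1.31 to 2.23 with a median of 1.65, by its main probe, which overlapped Gnas. Its other probes ranged from 2.42 to 4.11 and from 2.89 to 4.74, above every value of Gnas. Gna13, which activates guanine nucleotide exchange factors of small GTPases, lay between -0.38 and 0.04.

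The transducins Gnat1 and Gnat2 are the G alpha subunits of rods and cones. Gnat2 passed the background flag on all 10 arrays in Cy-3 but on only 5 in Cy-5, and ranged from -3.79 to -0.37 with a median of -1.92. Its highest value was on the dim array, and without C10-434 it was at or below -1.13. Gnat1 had a Cy-5 signal well above background on 7 arrays and a Cy-3 signal on 6, with values from -0.82 to 1.26. The 4 photoreceptor markers found were likewise near or at background, and for 0 of the 4 did Cy-5 pass the background flag throughout.

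Among the G beta genes, Gnb5 stood apart from the other 4. Gnb5 is the beta subunit that pairs with the R7 family of RGS proteins in place of a gamma subunit. It ranged from 2.83 to 3.61 with a median of 3.14, or 8.79-fold higher in Cy-5. Gnb2 had a median of 0.77 and Gnb3, known from cone photoreceptors, one of -0.64. Gnb4 lay below 0 on 9 arrays, between -0.79 and -0.29, and at 0.20 on C10-434. Gnb1, the common beta subunit of brain, ranged from -1.60 to -0.93 with a median of -1.15 by its main probe.

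Of the G gamma genes, 4 were at least 2-fold higher in Cy-5 on every array (18.0% over all genes). Gng5 was at least 2-fold higher in Cy-3 on every array (13.3% over all genes). Gng13, first known from taste cells and also present in brain, ranged from 5.02 to 6.49 with a median of 5.31. Gng4 ranged from 4.06 to 5.92 with a median of 4.48, and its Cy-3 signal was not well above background on C10-434. Gng3, an early marker of neurons, ranged from 3.6 to 4.93 with a median of 3.86. On each of these 3 genes C10-434 gave the highest value. Gng7, the gamma partner of Gnal in striatum, ranged from 2.20 to 3.23 with a median of 2.87 and was not highest on C10-434. Gng5, a broadly expressed gamma gene, ranged from -2.64 to -1.89 with a median of -2.27. Gng2 differed least between arrays, from 0.04 to 0.25, and Gng8 and Gng12 had medians of -0.79 and -0.24.

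The promoters of Gng3 and Gng5 are shown because these gamma genes lay on opposite sides of 0, and that of Rgs4 because it had the highest ratio of all members. Each is the RefSeq sequence of assembly GRCm38.p6 from 250 bases before to 50 bases after the gene start, on the strand of the gene, and capitals mark the GC box (GGGCGG), the CCAAT box and the TATA box (TATAAA) on either strand. The Gng3 window is chr19:8839197-8839496 on the minus strand, the Gng5 window chr3:146499586-146499885 on the plus strand and the Rgs4 window chr1:169747593-169747892 on the minus strand.
Gng3: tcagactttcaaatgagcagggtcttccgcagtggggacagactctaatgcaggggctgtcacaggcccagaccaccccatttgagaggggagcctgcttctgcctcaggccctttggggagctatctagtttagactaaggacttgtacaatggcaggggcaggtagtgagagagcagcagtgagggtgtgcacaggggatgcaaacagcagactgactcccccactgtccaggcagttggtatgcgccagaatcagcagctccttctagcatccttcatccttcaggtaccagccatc
Gng5: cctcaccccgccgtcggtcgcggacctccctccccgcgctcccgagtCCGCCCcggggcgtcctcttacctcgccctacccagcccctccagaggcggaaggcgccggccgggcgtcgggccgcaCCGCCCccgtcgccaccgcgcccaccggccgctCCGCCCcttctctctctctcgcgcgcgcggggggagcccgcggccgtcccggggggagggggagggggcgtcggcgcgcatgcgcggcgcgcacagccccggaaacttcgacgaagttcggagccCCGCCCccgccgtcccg
Rgs4: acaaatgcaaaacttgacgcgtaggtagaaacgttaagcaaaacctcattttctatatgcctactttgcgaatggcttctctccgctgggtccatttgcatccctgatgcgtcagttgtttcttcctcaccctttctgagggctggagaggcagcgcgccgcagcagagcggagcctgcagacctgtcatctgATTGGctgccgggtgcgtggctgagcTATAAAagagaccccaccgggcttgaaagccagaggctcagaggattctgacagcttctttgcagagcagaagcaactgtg
The Gng3 window held 2 CpG and none of the 3 motifs, the Gng5 window 52 CpG and 4 matches to GGGCGG, all on the opposite strand, and the Rgs4 window 13 CpG, 1 CCAAT, on the strand opposite to the one printed, and 1 TATAAA. The promoter table held 49 promoters for 36 of the 49 members. GGGCGG occurred in 53.1% of the member promoters and 35.7% of all promoters, CCAAT in 28.6% and 37.4%, and TATAAA in 18.4% and 13.6%. Among the 23 promoters of members at least 2-fold higher in Cy-5, the shares were 52.2% for GGGCGG, 43.5% for CCAAT and 13.0% for TATAAA. These matches describe letters in a window and were not tested against the ratios.

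**Figure D1:**
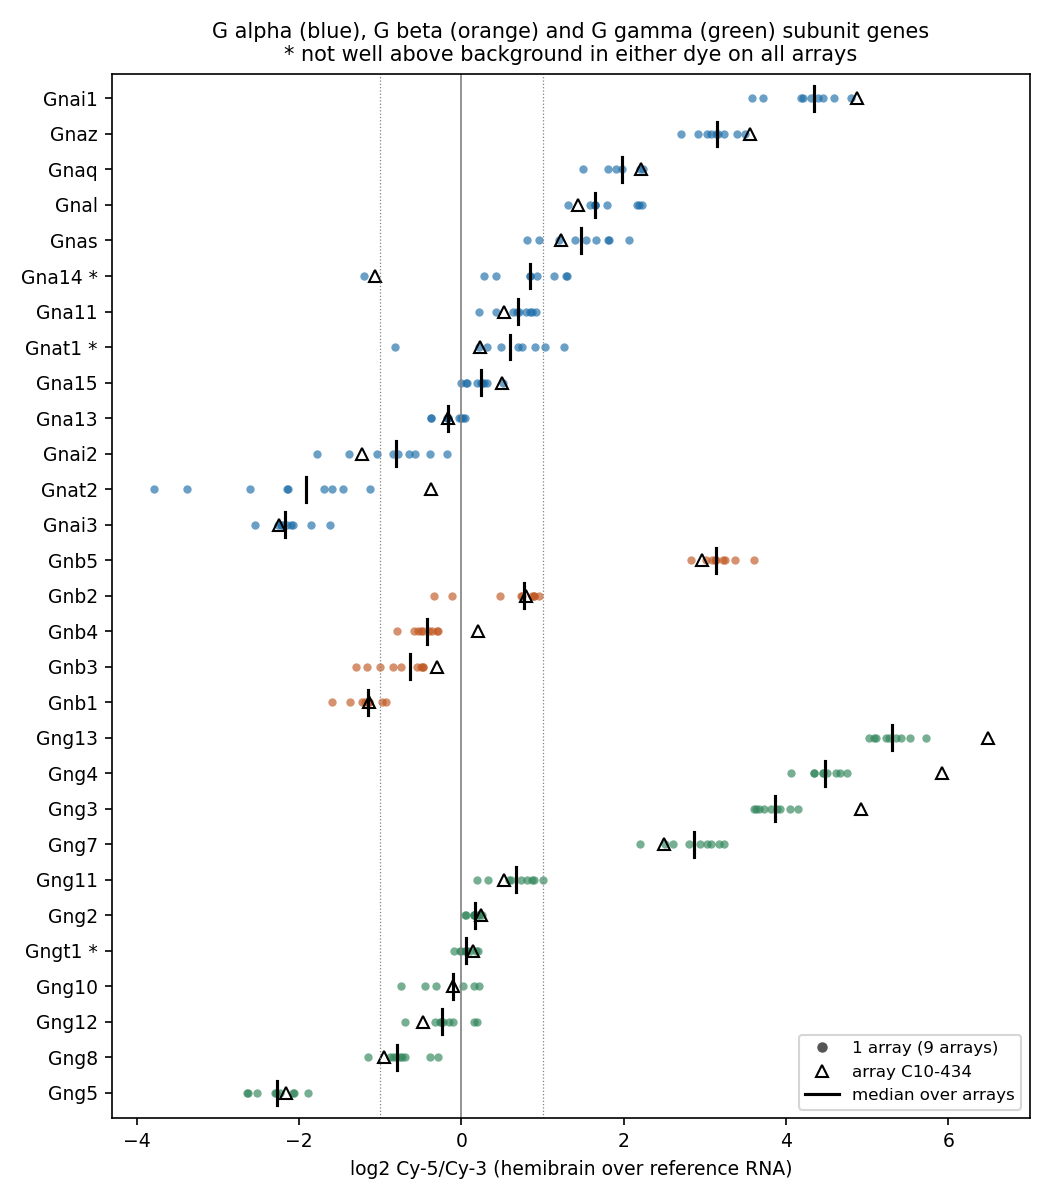
Log2 Cy-5/Cy-3 of each G protein subunit gene (horizontal axis) on each array, with filled points for 9 arrays, a triangle for C10-434 and a bar for the median over arrays. Dotted lines mark a 2-fold ratio, and Gnai1, Gnaz, Gnb5, Gng13, Gng4, Gng3 and Gng7 have medians from 2.87 to 5.31, whereas Gnai3 and Gng5 lie below -1 on every array.

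The RGS genes held the highest and the lowest ratio of all members. The R4 family, small proteins with little beyond the RGS domain, had 5 of 9 genes at least 2-fold higher in Cy-5 (18.0% over all genes). It had 1 at least 2-fold higher in Cy-3 (13.3% over all genes). Rgs4, a regulator of Gi and Gq signalling in cortical neurons, had a value on 9 arrays and ranged from 6.31 to 8.51 with a median of 6.53, at the 98.9th percentile of all genes. Without C10-434, where its Cy-3 signal was not well above background, its highest value was 6.89. Rgs8, known from Purkinje cells, ranged from 4.38 to 6.71 with a median of 4.83. Rgs5, a marker of pericytes, ranged from 4.03 to 7.13 with a median of 4.76, and the highest value without C10-434, where its Cy-3 signal was not well above background either, was 5.34. Rgs2 and Rgs16, which are induced by neuronal activity, had medians of 1.80 and 1.52.

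The pericyte and smooth muscle list, set beside Rgs5, was mixed. Kcnj8, Abcc9 and Myh11 were at least 2-fold higher in Cy-5 on every array, with medians of 6.53, 4.42 and 3.15, although Cy-3 passed the background flag on 2 arrays for Kcnj8, on 0 for Abcc9 and on 10 for Myh11, while Pdgfrb had a median of -0.35 and Acta2 one of -2.14. Rgs1, an R4 gene of lymphocytes, ranged from -6.09 to -3.01 with a median of -5.45. Its Cy-5 signal was not well above background on any of the 10 arrays, so this ratio is only a bound, and Rgs1 was at least 13.9-fold higher in Cy-3 by the median over the arrays and at least 2.48-fold on the array with the lowest bound. Its median was -1.78 with normexp background correction, where it was no longer 2-fold on every array, and -2.07 with a floored background subtraction, both of which add an offset to each dye. Among the 5 leukocyte markers, Ptprc and Lck were at least 2-fold higher in Cy-3 on every array, with medians of -5.68 and -2.74, and Cd3e and Cd79a had medians of 0.08 and 0.33. The part of vessel cells in Rgs5 and of leukocyte RNA in Rgs1 was not tested.

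The R7 family (Rgs6, Rgs7, Rgs9 and Rgs11) forms stable complexes with Gnb5 and is anchored in the membrane by Rgs7bp, Rgs9bp or Gpr158. Rgs6, Rgs7 and Rgs9 were at least 2-fold higher in Cy-5 on every array with a value. Rgs6 ranged from 3.97 to 5.22 with a median of 5.01, but its Cy-3 signal was well above background on only 3 arrays, and its median was 1.89 with normexp. Rgs7 had a value on 9 arrays, from 4.33 to 6.04 with a median of 4.59. Rgs9, whose long form is known from striatal neurons, ranged from 4.26 to 5.65 with a median of 4.63. Rgs11 lay lower, from 0.96 to 1.90 with a median of 1.47, and missed the 2-fold threshold on C10-423 alone.

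The partners of the R7 family lay on both sides of 0. Gpr158 ranged from 7.32 to 8.98 with a median of 8.03, and its Cy-3 signal was well above background on 1 array. Rgs7bp ranged from 4.77 to 7.32 with a median of 5.04, and Gnb5 had the median of 3.14 given above. Rgs9bp, the anchor known from photoreceptors, had a median of -0.93, with a Cy-5 signal above background on 1 array. Gpr158, Rgs7bp, Gnb5 and 3 of the 4 R7 genes were at least 2-fold higher in Cy-5 on every array with a value. The share over all genes was 18.0%.

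In the R12 family, Rgs14, a scaffold known from hippocampal area CA2, had a median of 2.71 and Rgs12 one of 1.39 over 8 arrays. Rgs10, known from microglia and neurons, lay between 0.24 and 0.53. In the RZ family, Rgs17 ranged from 3.83 to 4.5 with a median of 4.23, and Rgs20 had a median of 2.32. Rgs19, the third RZ gene, ranged from -1.59 to -0.97 with a median of -1.33, so that family members again lay on opposite sides of 0.

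**Figure D2:**
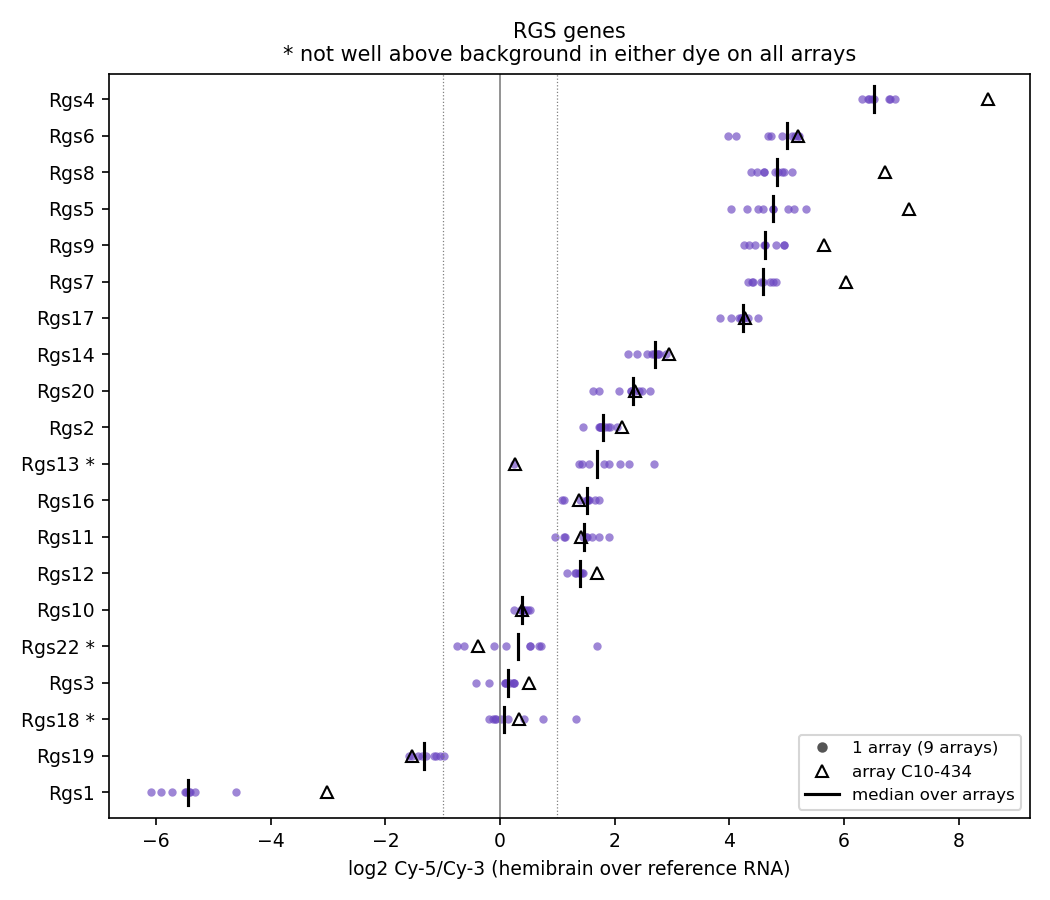
Log2 Cy-5/Cy-3 of each RGS gene (horizontal axis) on each array, with filled points for 9 arrays, a triangle for C10-434 and a bar for the median over arrays. Rgs4 lies between 6.31 and 8.51 and Rgs1 between -6.09 and -3.01. The triangle lies to the right of the other arrays for Rgs4, Rgs8, Rgs5, Rgs9, Rgs7 and Rgs1. It does so by less for Rgs14, Rgs2, Rgs12 and Rgs3.

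Gngt1, the rod gamma subunit, was well above background in neither dye on any array. Another 5 members, Gna14, Gnat1, Rgs13, Rgs18 and Rgs22, were above background in neither dye on all arrays, and their ratios carry little information. Rgs13 had a median of 1.69 but passed the background flag on 3 arrays in Cy-5 and 0 in Cy-3.

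Beyond the members, 40 of 42 listed genes of the pathway were found. Of these, 20 were at least 2-fold higher in Cy-5 on every array (18.0% over all genes), 3 at least 2-fold higher in Cy-3 (13.3% over all genes) and 17 neither. Gnao1 ranged from 2.66 to 3.61 with a median of 2.97. The highest medians after Gpr158 were those of Adcy1, the calmodulin-stimulated adenylyl cyclase, at 5.85, and Kcnj9, a subunit of the G protein-gated potassium channel, at 5.75. The lowest medians were those of Gpsm2 and Gpsm3, which hold the GDP-bound Gi alpha subunit, both at -2.01, and of Adcy7, at -1.95.

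Several members gave different ratios by different probes. In 18 genes at least 2 probes were well above background, and in 8 of these the probe medians lay more than 1 apart on the log2 scale. The probes of Gnai1 had medians of -0.58, 4.35, 5.95 and 7.08, the first of them with a median Cy-5 signal of 608 and the second, the main probe, with 56600. Gnb1 was the member whose probes passed 1 in opposite directions. Of its 4 probes, the main probe had a median of -1.15 and 2 others had -0.88 and -0.52, while the fourth ranged from 1.12 to 2.02 with a median of 1.57 and had the highest Cy-5 signal of the 4. The Gng12 probes had medians of -0.24 and -2.32, the Gnal probes 1.65, 3.01 and 4.34, and the Rgs8 probes 4.83 and 2.03. No probe sequence was used here, so the transcripts read by each probe are not known, and the direction of Gnb1 depends on the probe.

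**Figure D3:**
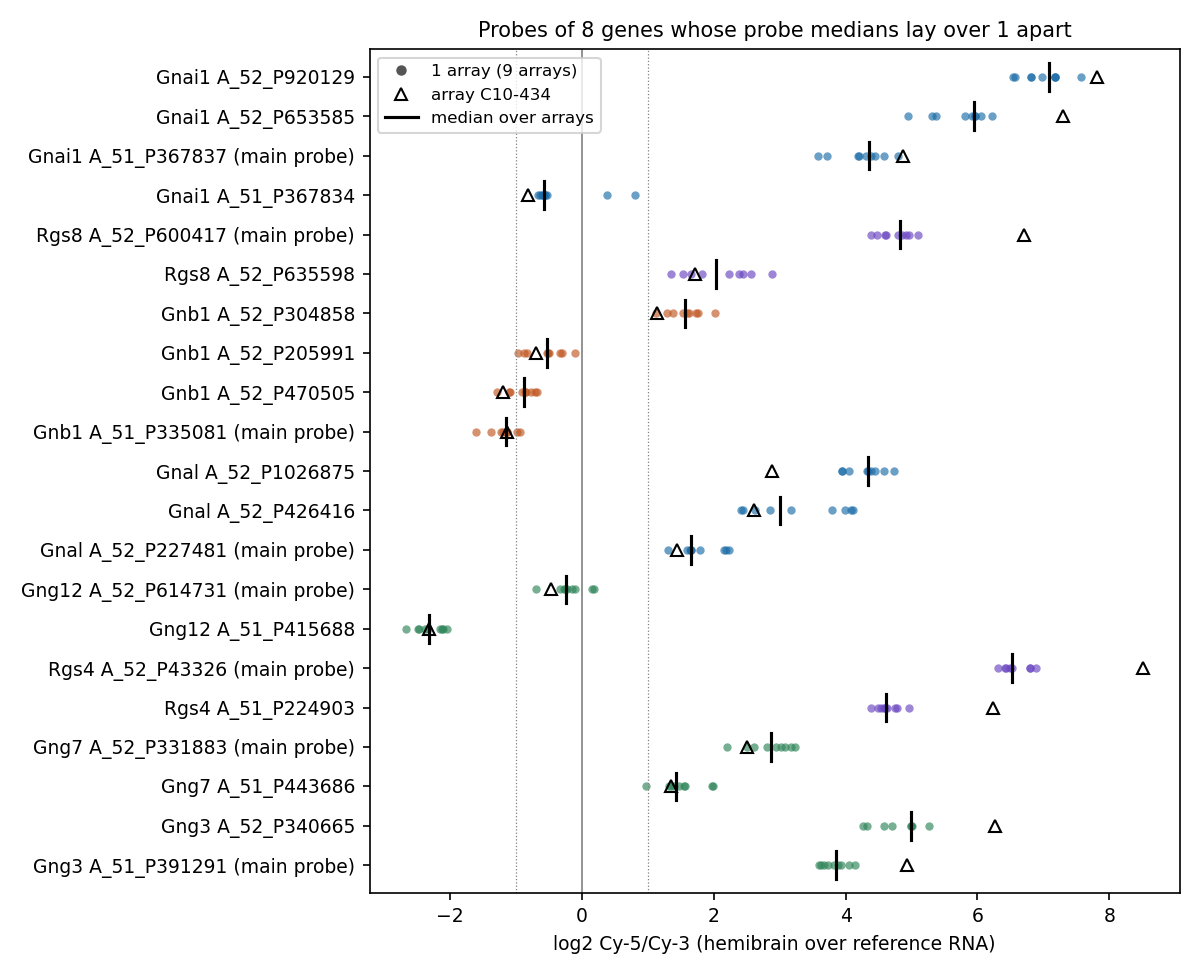
Log2 Cy-5/Cy-3 (horizontal axis) of each probe of the 8 genes whose probe medians lay more than 1 apart, with filled points for 9 arrays, a triangle for C10-434 and a bar for the median over arrays. The 4 Gnb1 probes lie on both sides of 0, with medians of -1.15, -0.88, -0.52 and 1.57.

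The spread of the members between arrays was set beside that of other genes. Over the 36 members well above background in both dyes on all arrays, the median range was 0.88, and over the 11344 genes of that kind it was 0.78. Without C10-434 the ranges were 0.71 and 0.72. The largest ranges were those of Rgs8 (2.33), Rgs7 (1.71), Gnai2 (1.60), Gng13 (1.47) and Rgs9 (1.39). Without C10-434 they were 0.72 for Rgs8, 0.48 for Rgs7, 0.70 for Gng13 and 0.70 for Rgs9, while that of Gnai2 stayed at 1.60.

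Among members with both dyes above background on all arrays, the largest deviations of C10-434 were those of members with high ratios. Of 9 members with a median over 3 and both dyes above background, 7 were highest on C10-434, with a median deviation of 1.02 from the other arrays and a range from -0.18 to 1.91. Gnb5 and Rgs17 were the exceptions. Of 14 members between 0 and 2, 3 were highest on C10-434, with a median deviation of 0.02. Members outside these groups were mixed. The deviation was -0.44 for Gng7, with a median of 2.94 on the other arrays, and 0.67 for Gnb4, with one of -0.47. Gng5 and Gnai3, at -2.29 and -2.15, deviated by 0.13 and -0.09. A relation with the size of the ratio was not tested. On C10-434 the share of probes well above background was the lowest in both dyes, while by median signal only Cy-5 was low, as given above. The part of either dye in the deviations was not tested.

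**Figure D4:**
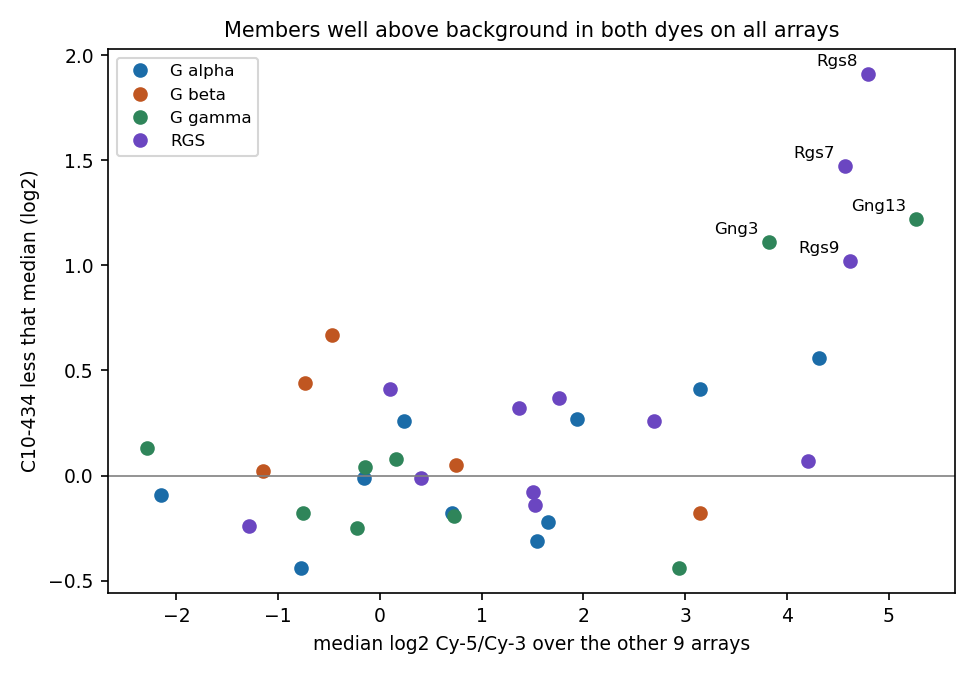
Deviation of C10-434 from the median of the other 9 arrays (vertical axis, log2) against that median (horizontal axis, log2 Cy-5/Cy-3) for members well above background in both dyes on all arrays. Points at 0 to 2 lie near the line of no deviation, with a median of 0.02, and Rgs8 reaches 1.91.

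A second group of members was low on the same pair of arrays. Gnai2, Gnas, Gnb2, Gna11, Gnb1 and Rgs11 each had C10-423 and C10-435 as their lowest arrays, a pattern noticed after the values were seen. Gnb2 was at -0.34 on C10-423 and -0.12 on C10-435, and between 0.48 and 0.95 on the other 8 arrays. This pair was lowest in 6 of 32 members with both dyes above background and 10 values (18.8%), against 8.69% of all such genes. Both arrays were at position 4 of their slides, as was C10-413, on which Gnai2, Gnas and Rgs11 were highest. The part of the position on the slide was not tested.

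There were 4 slides. Only 2 of them carried 4 arrays, and these were compared to see how far the members varied with the slide. With limma and Benjamini-Hochberg adjustment over 40299 probes, 30 probes (0.0744%) differed between the slides, 20 of them lower on the second slide (0.0496%) and 10 higher (0.0248%). Of the 79 member probes 73 were tested, and 1 was called. It was a probe of Gnal, with ratios of 3.79 to 4.11 on the first slide and 2.42 to 2.85 on the second, a difference of -1.37 ± 0.15 (SE, adjusted p = 0.0388 by limma). The groups did not overlap. Its processed Cy-5 signal was 450.0 to 649 on the first slide and 303 to 607 on the second, and its Cy-3 signal 33.3 to 46.6 and 67.3 to 108. The Cy-3 signal was well above background on 0 of 4 first-slide arrays and 3 of 4 second-slide arrays, so the first-slide ratio rests on a dye near background.

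The other Gnal probes, the main probe among them, did not pass the threshold, with adjusted p of 0.596 and 0.999 by limma. Leaving out any 1 array moved the adjusted p of the called probe to between 0.0548 and 0.136, so its call rested on all 8 arrays, each of them needed, while the difference stayed between -1.45 and -1.30. The 6 member probes with an unadjusted p under 0.05 were 8.22% of those tested, against 9.92% of all probes. The median size of the difference was 0.112 for member probes and 0.175 for all probes. The slides also differ in the animals they hold, and the diet of each array is not settled. Slide, animal and diet cannot be told apart here.

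Rgs9, Gnal and Gng7 are known for their high levels in striatum, and the question was whether they varied over the arrays with other striatal genes. Each, by its main probe, was set against the median of 9 striatal markers, among them Ppp1r1b, Drd1, Drd2, Adora2a, Penk and Tac1, over the 10 arrays. The other probes, with medians of 3.01 and 4.34 for Gnal and 1.43 for Gng7, were not set against the list. The striatal list was lowest on C10-437, at -0.27 relative to the gene medians, and highest on C10-415, at 0.23. Over 3 relations and with a permutation test of 100000 resamples (two-sided), Rgs9 had r = 0.59 (p = 0.07, adjusted p = 0.105) and rho = 0.867 (p = 0.00192, adjusted p = 0.00576). Gng7 had r = 0.684 (permutation p = 0.0304, adjusted p = 0.0913) and rho = 0.612 (p = 0.0668, adjusted p = 0.1). Gnal had r = 0.123 (permutation p = 0.73, adjusted p = 0.73) and rho = 0.0788 (p = 0.841). The rank order of Rgs9 thus passed the threshold and the linear relations did not. With median centring in place of loess Rgs9 had rho = 0.394 (adjusted permutation p = 0.392) and r = 0.356, and that call was lost. It was kept under the other alternatives of normalization and background correction, given below.

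Rgs9 was at 5.65 on C10-434 and between 4.26 and 4.96 on the other arrays. Without C10-434 and by the exact permutation test over 9 arrays, r was 0.862 for Rgs9 (adjusted p = 0.0106), 0.758 for Gng7 (adjusted p = 0.0282) and 0.222 for Gnal (adjusted p = 0.556). Without the 2 arrays farthest from the median of the list, C10-415 and C10-437, r was 0.478 for Rgs9, 0.636 for Gng7 and 0.277 for Gnal, with adjusted permutation p of 0.36, 0.276 and 0.504. With each slide's mean subtracted, over 8 arrays, r was 0.626 for Rgs9, 0.723 for Gng7 and 0.296 for Gnal, with adjusted permutation p of 0.245, 0.245 and 0.547. The rank relation of Rgs9 then had rho = 0.81 without the 2 farthest arrays (adjusted permutation p = 0.0653), so that its call rested on them, and rho = 0.857 with the slide means subtracted (adjusted permutation p = 0.0417).

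**Figure D5:**
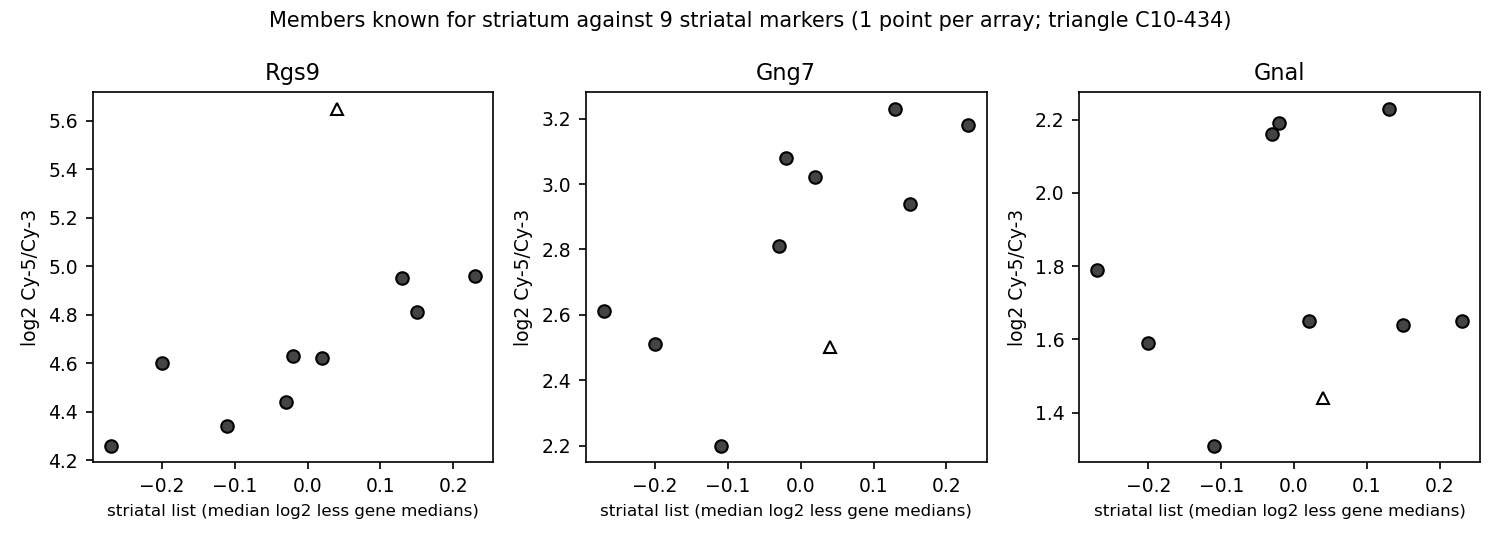
Log2 Cy-5/Cy-3 of Rgs9, Gng7 and Gnal (vertical axes) against the median of 9 striatal markers, each less its own median over the arrays (horizontal axes, log2), with 1 point per array and a triangle for C10-434. Rgs9 on C10-434, at 5.65, lies above the other 9 arrays. Gnal, by its main probe alone, shows no order along the horizontal axis (r = 0.123).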

How the data were processed

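Total RNA of 10 hemibrains was measured on dual dye arrays of 45018 spots. The authors deposited, per array, the output of Feature Extraction 10.10.1.1: intensities of each dye, processed signals, a log10 ratio and flags, of which the flags for outlying and well above background spots were used. The authors also deposited a table of log2 ratios, 1 value per probe and array (correlation with the log10 ratio at least 0.9972). The processed intensities were turned into log2 Cy-5/Cy-3 and normalized by loess array by array (span 0.3), without control spots or outlier-flagged spots, and spots of a probe were averaged. Probes were named through RefSeq accessions (GRCm38.p6, names only), 27198 of 41174 matching. The probe of highest mean log2 signal over both dyes and all arrays stood for a gene, which was called 2-fold when it passed 1 on every array with a value, with at least 6 values. A probe passed as well above background where the flag was set on a share of 0.5 or more of its spots. No spot was saturated. The number of arrays limits the precision. Slides were compared with limma 3.58.1 in R 4.3.3. P-values measure only the spread between these arrays.

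Members, marker lists and pathway genes were chosen with earlier results of these data known. Single values of some markers are not reported here. Named genes were the 3 highest and 3 lowest of each class, the 5 with the largest range, the striatal genes, members called between slides, members with probes of opposite sign and members above background in neither dye. The other members were named after their values were seen. Alternatives were the processed signals without loess, median centring, normexp or a floored background subtraction (offset 50, floor 0.5), the authors' table, leaving out arrays, all probes of a gene, 1.5-fold and filters on dim probes. Normexp was run on median signals. Including genes with 10 values only was added after seeing the data. Python 3.11.15, numpy 2.4.6, pandas 2.3.3 and scipy 1.17.1 were used.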

Additional observations from a re-analysis of the deposited data

Results flagged for a closer look

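Dixon's test over the arrays with a value was run on 28 named members, and 9 had an array set apart at the 95% level. Chance sets apart about 1 in 20 groups, but 5 of the 28 were named for their range over the arrays, to which this rate does not apply. They gave 4 of the 9, and the other 23 members gave 5. In all 9 it was C10-434, the dim array. The members are thus not independent, and the rate is no measure for the other 23 either. Among the gamma genes, Gng13 was at 6.49 on it (5.02 to 5.72 on the others), Gng3 at 4.93 (3.6 to 4.15) and Gng4 at 5.92 (4.06 to 4.75). Among the RGS genes, Rgs4 was at 8.51 (6.31 to 6.89), Rgs7 at 6.04 (4.33 to 4.81), Rgs8 at 6.71 (4.38 to 5.10) and Rgs9 at 5.65 (4.26 to 4.96). Gnb4 was at 0.20 (-0.79 to -0.29) and Rgs1, with no Cy-5 signal well above background, at -3.01 (-6.09 to -4.60). Rgs4 and Gng4 lacked a Cy-3 signal well above background on C10-434.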

How the results depend on the processing

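No named member changed the sign of a call under any alternative tried. Sizes moved by more than a measure of spread between arrays for 14 of 28 with normexp, 11 with the floored subtraction and 11 with all probes of a gene. That measure was narrower than the range, since Gng7 counted as moved from 2.87 to 2.48 with the floored subtraction, against a range of 1.03. Medians became 1.89 for Rgs6, 2.60 for Gng4, 4.98 for Rgs4 and 0.76 for Gnal with normexp, and 3.01 for Gnal with all probes. The count of members at least 2-fold higher in Cy-5, 21, fell to 9 with normexp, where 4.27% of all genes passed, and was 17 to 23 under the others. Gnal dropped out without a further loess, with median centring, with the floored subtraction, with the authors' table and with normexp. The count for Cy-3, 3, became 5 without loess, with median centring, with the authors' table and at 1.5-fold, each time by Gnb1 and Rgs19, and 2 with normexp, without Rgs1. The Gnal probe called between slides was lost with normexp and with the floored subtraction (0 member probes called in both, with differences of 0.07 and -0.04), and when any 1 array was left out (0 to 0 member probes). Over all probes the count of 30 became 0 with normexp, 1 with the floored subtraction, 92 among probes well above background in Cy-5, and 0 to 8 with 1 array left out. With the striatal list, r of Rgs9 became 0.964 with normexp, 0.684 with the floored subtraction and 0.862 without C10-434. That of Gng7 became 0.861, 0.847 and 0.758, and that of Gnal 0.811 with normexp. All of these passed the threshold, whereas with median centring r of Rgs9 was 0.356 and its rank call was lost (rho = 0.394). That rank call was kept with normexp, the floored subtraction and the authors' table, without loess and without C10-434 (adjusted permutation p from 0.00245 to 0.0365). The authors' table holds nearly the same ratios as the signals without loess, with rho = 0.77 for Rgs9 in both. These alternatives are therefore not separate checks. The rank relation of Gng7 passed with median centring (rho = 0.794, adjusted permutation p = 0.0261), normexp, the floored subtraction and without C10-434. It did not pass without loess or with the authors' table. The causes were not tested. Normexp could not be run on mean signals. No paired analysis was possible because the arrays fall into no settled groups and carry no replicate numbers. Dim signal limits Rgs1, Rgs6, Gnat2, on C10-434 Rgs4, Rgs5, Rgs20 and Gng4, and the 6 members not above background in either dye on all arrays.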
